A study of Oryctolagus cuniculus with 12 samples.

Results

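The 9 genes described here handle arginine and the products made from it: the arginases ARG1 and ARG2, the nitric oxide synthases NOS2 and NOS3, ornithine decarboxylase ODC1, spermidine/spermine acetyltransferase SAT1, the arginine carrier SLC7A2, and the citrulline recycling enzymes ASS1 and ASL. They were taken by symbol from the 20566 genes of the deposited gene table, and each symbol was found. The tissue was conjunctiva of female Japanese white rabbits, collected with the filtration bleb 3 hours, 3 days or 14 days after right-eye trabeculectomy with mitomycin C (TL3h, TL3d and TL14d, n = 3 libraries each). The control group (cont, n = 3) was conjunctiva of left eyes. Trabeculectomy opens a drainage route for aqueous humor under a scleral flap, and mitomycin C is an alkylating drug that limits scarring. Per the study's methods, surgery ended with a conjunctival injection of betamethasone, a glucocorticoid, and an antibiotic ointment. The operated groups therefore differed from cont in all of these treatments at once, and their effects cannot be told apart. The labels do not give the ages, how control and operated eyes match by animal, or when the control tissue was taken.

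Arginine is split by arginases into urea and ornithine, or oxidized by nitric oxide synthases into nitric oxide and citrulline. ODC1 turns ornithine into putrescine, from which the polyamines spermidine and spermine are made, and SAT1 acetylates these for export or breakdown. ASS1 and ASL rebuild arginine from citrulline, and SLC7A2 carries cationic amino acids into cells. In wounds, arginase and NOS2 are both known from myeloid cells, whereas NOS3 is the nitric oxide synthase of blood vessel endothelium.

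The libraries held 27111348 to 38591425 counts. Levels are given as read counts relative to the scaled library total (CPM) after scaling by the trimmed mean of M values (TMM), and a count of 3, the limit that a count of 0 allows, equalled 0.0712 to 0.124 CPM. TL14d replicate 1 stood apart: its mean correlation of log2 CPM across genes was 0.952 with the cont libraries and 0.864 with the other TL14d libraries, and the fold changes of the 9 genes at 14 days are given with and without it. Epithelial markers were read beside the conjunctival label, a list that cannot by itself tell conjunctiva from other epithelium. Of 15, 11 were in the table and none of these was at or under 3 counts in any library, with a summed level of 4567 to 17418 CPM over the 12 libraries; KRT13, KRT14, KRT19 and MUC5AC had no row under these symbols. At 3 hours 1 of the 11 rose and 3 fell, against 23.2% and 22.2% of all tested genes. The mean of these markers was higher in TL3h than in cont for 4 and lower for 7. Fibroblast markers, 11 of 11 in the table, summed to 12344 to 77200 CPM in cont, 105741 to 126885 CPM in TL3h, 1382 to 65232 CPM in TL3d and 11148 to 57538 CPM in TL14d. Of these 11, 0 passed the test against cont at 3 hours or 3 days, where 45.4% and 17.6% of all tested genes did. At 3 days 2 of 11 were lower than at 3 hours, against 19.0% of all tested genes. The part of these shifts in the results was not tested. In bulk tissue, more cells of a type and more RNA per cell cannot be told apart. Nothing in the labels says more of the replicates than that they are separate samples, so the errors measure the spread between these libraries.

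At 3 hours, ARG1, NOS2, NOS3, ODC1 and SAT1 were higher than in control conjunctiva, and none of the 9 genes passed the test downwards. Those 5 of 9 genes stood in a comparison in which 45.4% of all 14835 tested genes passed (23.2% upwards and 22.2% downwards), and 7 of 9 had an unadjusted p under 0.05, against 52.3%. The libraries of the groups did not overlap for 6 of 9 genes, against 57.3% of all genes. At 3 days ARG1 was higher and ASL lower, 2 of 9 genes against 17.6% of all genes, and 4 of 9 did not overlap, against 45.5%. At 14 days 0 of 9 passed edgeR's quasi-likelihood test, against 0.00% of all genes. ARG1 and ODC1 had an unadjusted p under 0.05 there, a share of 10.4% over all genes, and DESeq2 called 1 member and 2.47% of all genes. The median log2 fold change of the 9 genes was 1.97, 0.18 and 0.42 at the 3 times, and that of all genes 0.02, -0.00 and 0.02. Without TL14d replicate 1 the 14-day medians were 0.64 and -0.02. The 9 genes were chosen by their pathway with their counts in cont, TL3h, TL3d and TL14d in view, so the counts and each q (the adjusted p over all genes) place them in the fit and are no independent support for the list.

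**Figure D1:**
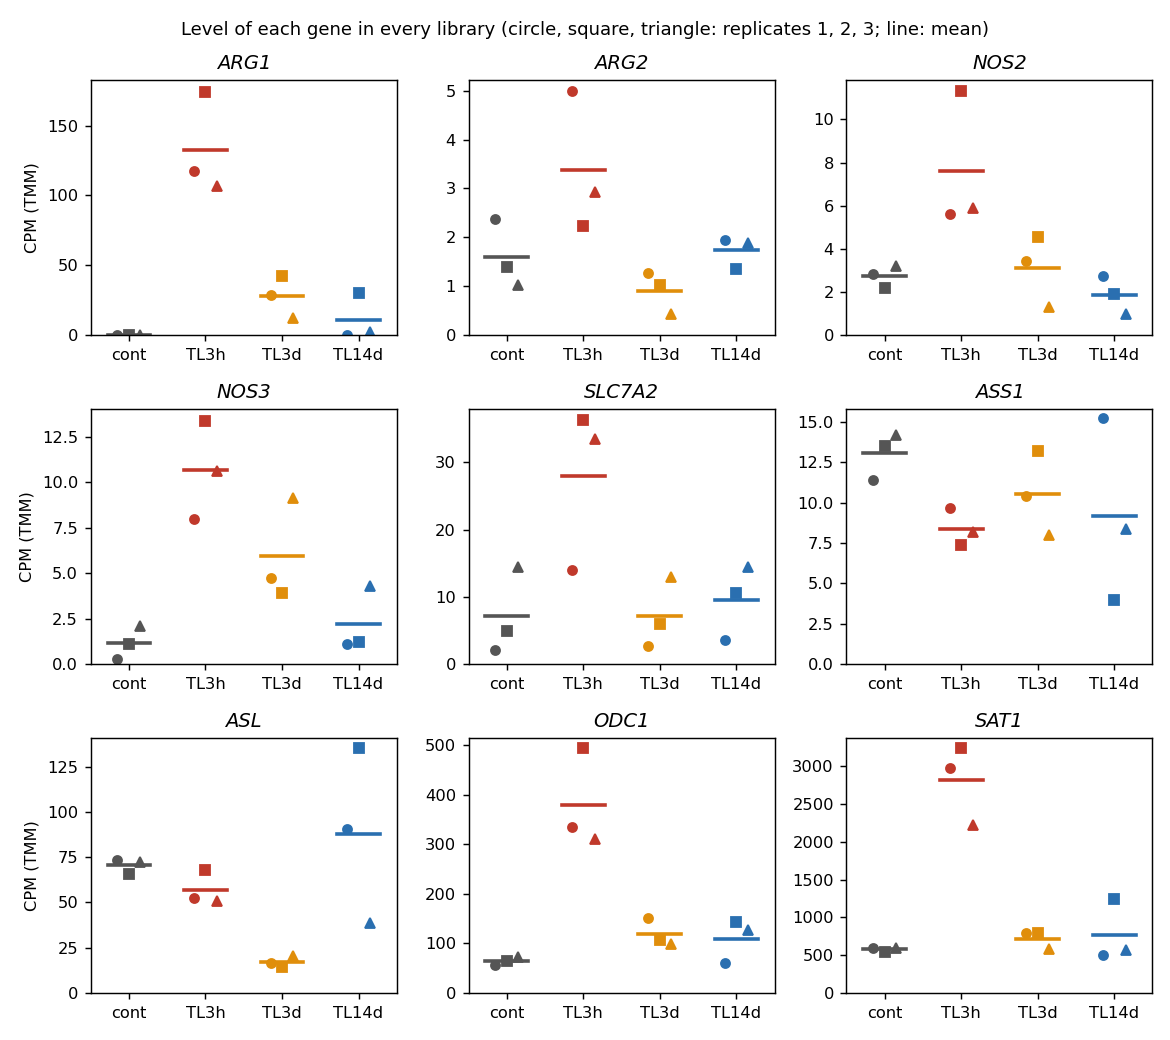
Level of each of the 9 genes in every library, in CPM on linear axes that start at 0, by group. Circles, squares and triangles are replicates 1, 2 and 3 and lines are group means; ARG1 lies between 0.0712 and 0.376 CPM in cont and between 107 and 174 CPM in TL3h, while ASS1 lies between 3.97 and 15.3 CPM in all 12 libraries.

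ARG1, the cytosolic arginase, was nearly absent from control conjunctiva. It lies at 121799266 to 121811748 on the plus strand of chromosome 12 in OryCun2.0. The cont libraries held 3, 5 and 15 counts, or 0.0712, 0.125 and 0.376 CPM. In TL3h the level was 117, 174 and 107 CPM. No TL3h library came near a cont library. The mean was 0.191 CPM ± 0.163 (SD, n = 3) in cont and 133 CPM ± 36.2 (SD, n = 3) in TL3h, a ratio of means of 695. The fitted log2 fold change was 9.42 (SE 1.91, q = 0.00283), a size that rests on the few control counts: without cont replicate 3 it was 10.3.

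At 3 days ARG1 was at 28.7, 42.6 and 12.4 CPM, below each TL3h library and above each cont library. The log2 fold change against cont was 7.17 (SE 1.77, q = 0.0257). This call was lost without cont replicate 1 (q = 0.0907), cont replicate 2 (q = 0.0909), TL3d replicate 1 (q = 0.0647) or TL3d replicate 2 (q = 0.0719), with log2 fold changes from 6.73 to 8.09 (the highest without cont replicate 3) and q from 8.22e-06 to 0.0909 in all alternatives. In the 4 fits that lost the call, 3.25%, 2.46%, 2.97% and 2.37% of all genes passed at 3 days, against 17.6%. Against TL3h the log2 difference was -2.25 (SE 1.33, q = 0.207), which did not pass, although the groups did not overlap. With only the 6 libraries compared it passed (q = 0.0124; 0.0124 to 0.368 over all alternatives).

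The TL14d libraries were split. ARG1 had 0 counts in replicate 1, 30.2 CPM in replicate 2 and 1.95 CPM in replicate 3, so 1 library had none, 1 was at the level of TL3d and 1 lay above the controls and below TL3d. A count of 0 allows up to 0.101 CPM in replicate 1, above the lowest control. The log2 fold change against cont was 5.80 (SE 1.70, q = 0.346). Without TL14d replicate 1 it was 6.38 (q = 0.0214), without TL14d replicate 2 it was 2.35 (q = 0.978) and without cont replicate 3 it was 6.72, and q ran from 0.00391 to 0.978 over all alternatives.

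Neutrophil markers were read beside ARG1. Of 15 listed, 12 were in the table and 11 were tested. Of those tested, 11 rose at 3 hours, 2 were higher than cont at 3 days and 2 fell from 3 hours to 3 days. Over all genes these shares were 23.2%, 10.6% and 19.0%. The neutrophil markers summed to 5.06 to 111 CPM in cont, 1474 to 3761 CPM in TL3h, 302 to 1004 CPM in TL3d and 4.30 to 2152 CPM in TL14d. MPO was at or under 3 counts in 11 of 12 libraries, and CAMP in 6. MMP9, a gelatinase that other cells also make, gave 1992 CPM of the highest TL14d sum, and for 7 of the 12 markers the highest TL14d library was above the highest cont library. Macrophage markers, 11 of 15 in the table, summed to 121 to 934 CPM in cont, 831 to 1264 CPM in TL3h, 1637 to 2560 CPM in TL3d and 166 to 542 CPM in TL14d. Of these 11, 2 were higher at 3 hours and 6 at 3 days, against 23.2% and 10.6% of all genes. The part of either cell type in the ARG1 level was not tested.

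The mitochondrial arginase ARG2, on the minus strand of chromosome 20 at 4603546 to 4639377, was low throughout. The cont libraries were at 2.37, 1.40 and 1.03 CPM, the TL3h libraries at 5.0, 2.24 and 2.93 CPM, the TL3d libraries at 1.27, 1.02 and 0.427 CPM, and the TL14d libraries at 1.95, 1.36 and 1.89 CPM. TL3h overlapped cont, with a log2 fold change of 1.08 (SE 0.48, q = 0.0911), and so did TL3d (-0.82, SE 0.48, q = 0.244) and TL14d (0.11, SE 0.48, q = 0.949, and 0.02 without TL14d replicate 1). From 3 hours to 3 days ARG2 fell by 1.90 on the log2 scale (SE 0.49, q = 0.0129), with no overlap. Without TL3h replicate 1 that difference was -1.47 (q = 0.0554; 0.000965 to 0.0554 over all alternatives).

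NOS2, the inducible nitric oxide synthase, rose modestly at 3 hours. The gene is on the plus strand of chromosome 19 at 20232641 to 20274667. Its level was 2.82, 2.20 and 3.21 CPM in cont, 5.61, 11.3 and 5.89 CPM in TL3h, 3.45, 4.56 and 1.31 CPM in TL3d, and 2.72, 1.93 and 0.977 CPM in TL14d. Every TL3h library was above every other library. The log2 fold change at 3 hours was 1.47 (SE 0.51, q = 0.0373). The call was lost when libraries were scaled by total counts alone (0.97, q = 0.137), a scaling that moved the median of all genes at 3 hours to -0.47. It was also lost in 6 of the fits that left out a library: without cont replicate 1 (q = 0.0908), cont replicate 2 (q = 0.117), cont replicate 3 (q = 0.0669), TL3h replicate 2 (q = 0.167), TL3h replicate 3 (q = 0.0566) or TL3d replicate 1 (q = 0.0512). Over all alternatives q ran from 0.0155 to 0.167. At 3 days the log2 fold change was 0.18 (SE 0.50, q = 0.826), and it was -0.20 without TL3d replicate 2. At 14 days it was -0.55 (SE 0.50, q = 0.728), and -0.91 (q = 0.368) without TL14d replicate 1.

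NOS3, the endothelial nitric oxide synthase on the plus strand of chromosome 13 at 12419675 to 12437882, rose more steeply. The cont libraries held 11, 44 and 84 counts, or 0.261, 1.10 and 2.11 CPM. TL3h was at 8.0, 13.4 and 10.6 CPM, TL3d at 4.75, 3.91 and 9.13 CPM, and TL14d at 1.08, 1.20 and 4.30 CPM. Both early groups were above all controls. At 3 hours the log2 fold change was 3.20 (SE 0.77, q = 0.00702), with means of 1.16 CPM ± 0.924 in cont and 10.7 CPM ± 2.70 in TL3h (SD, n = 3 each). It was 3.92 without cont replicate 3. At 3 days it was 2.36 (SE 0.75, q = 0.0543), just outside the threshold. The 3-day value passed without cont replicate 3 (3.11, q = 0.0398), TL14d replicate 1 (q = 0.0432) or TL14d replicate 3 (q = 0.0429), and with DESeq2 (q = 0.00653), limma (q = 0.0335) or total-count scaling (q = 0.0495); over all alternatives q ran from 0.00653 to 0.14. Endothelial markers, 11 of 12 in the table, summed to 91.1 to 347 CPM in cont, 686 to 1315 CPM in TL3h, 360 to 660 CPM in TL3d and 119 to 371 CPM in TL14d. Of these 11, 2 were higher at 3 hours and 0 at 3 days, against 23.2% and 10.6% of all genes. PECAM1, which leukocytes also make, gave a mean of 716 CPM of the TL3h sums and 55.8 CPM of the cont sums, and over the list the mean was higher in TL3h than in cont for 8 of 11 markers and lower for 3. Their part in the NOS3 level was not tested. At 14 days the log2 fold change of NOS3 was 0.92 (SE 0.73, q = 0.686), and 1.24 (q = 0.376) without TL14d replicate 1.

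The carrier SLC7A2 differed widely between libraries of the same group. It lies on the minus strand of chromosome 2 at 68114799 to 68200503. The cont libraries were at 2.02, 4.93 and 14.5 CPM and the TL3h libraries at 14.0, 36.3 and 33.5 CPM, so the groups overlapped in a single pair. The log2 fold change was 1.97 (SE 0.81, q = 0.0708). It was 2.96 without cont replicate 3 (q = 0.0195), and passed with DESeq2 (q = 0.0267) and limma (q = 0.0397), with q from 0.00101 to 0.188 over all alternatives. TL3d was at 2.75, 5.88 and 12.9 CPM and TL14d at 3.60, 10.6 and 14.4 CPM, all inside the range of the cont libraries. The log2 fold changes were 0.01 (SE 0.78, q = 0.994) and 0.42 (SE 0.78, q = 0.876), and both changed sign in some fits that left out a library, down to -0.73 without TL3d replicate 3 at 3 days and -0.03 without cont replicate 1 at 14 days. Without TL14d replicate 1 the 14-day value was 0.81 (q = 0.593). Against TL3h, TL3d was lower in every library (-1.96, SE 0.81, q = 0.0811), and the difference passed with DESeq2 (q = 0.031) and without TL3d replicate 3 (q = 0.0498; 0.00162 to 0.206 over all alternatives).

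ASS1, argininosuccinate synthase, makes argininosuccinate from citrulline. Its row is on unplaced sequence at 400080336 to 400122470 of the joined scaffold coordinates used in the file. The level was 11.4, 13.5 and 14.2 CPM in cont, 9.65, 7.38 and 8.16 CPM in TL3h, 10.4, 13.2 and 8.02 CPM in TL3d, and 15.3, 3.97 and 8.37 CPM in TL14d. All TL3h libraries lay below all controls, yet the log2 fold change was -0.64 (SE 0.40, q = 0.222). It passed with total-count scaling (-1.13, q = 0.0385) and with only the 6 libraries compared (q = 0.0347), with q from 0.0347 to 0.351 over all alternatives. At 14 days the log2 fold change was -0.51 (SE 0.40, q = 0.683), and -1.08 (q = 0.101) without TL14d replicate 1.

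ASL, argininosuccinate lyase, completes the recycling of citrulline to arginine and was the member that fell at 3 days. It is also on unplaced sequence, at 261622207 to 261633177. The cont libraries were at 73.6, 65.8 and 72.4 CPM and the TL3h libraries at 52.5, 67.8 and 50.6 CPM (log2 fold change -0.31, SE 0.35, q = 0.513). TL3d was at 16.5, 14.2 and 20.6 CPM. Those libraries were the lowest 3 of the 12. The log2 fold change at 3 days was -2.04 (SE 0.37, q = 0.0119), with cont 4.13 times the TL3d mean. Without TL3d replicate 2 it was -1.93 (q = 0.0535; 5.22e-06 to 0.0535 over all alternatives). In that fit 2.37% of all genes passed at 3 days, against 17.6%. TL14d ranged widely, at 90.4, 135 and 38.5 CPM, on both sides of the controls (0.32, SE 0.35, q = 0.778, and 0.30 without TL14d replicate 1).

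ODC1, the enzyme that opens polyamine synthesis, rose at 3 hours. Its row is on unplaced sequence at 269051183 to 269054997. The cont libraries were at 56.8, 64.5 and 71.6 CPM, and the TL3h libraries at 335, 493 and 309.6 CPM. The groups were far apart, with a log2 fold change of 2.56 (SE 0.33, q = 0.000237) and a ratio of means of 5.90. TL3d was at 150.4, 106 and 97.8 CPM, above all controls but with a log2 fold change of 0.88 (SE 0.31, q = 0.076). That value passed without TL14d replicate 1 (q = 0.0208), with only the 6 libraries compared (q = 0.0331) and with DESeq2 (q = 0.0394), with q from 0.0208 to 0.232 over all alternatives. TL14d was at 60.5, 142 and 126 CPM, where replicate 1 lay among the controls. The 14-day log2 fold change was 0.77 (SE 0.31, q = 0.44), and 1.06 (q = 0.0441) without that library, with q from 0.0441 to 0.978 over all alternatives.

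SAT1, which acetylates spermidine and spermine, was the most abundant of the 9 genes per length in each group. It is on the plus strand of chromosome X at 9714960 to 9717971. The cont libraries were at 592, 548 and 594 CPM and the TL3h libraries at 2981, 3242 and 2222 CPM. The log2 fold change was 2.28 (SE 0.34, q = 0.000497), a ratio of means of 4.87. TL3d, at 787, 787 and 576 CPM, overlapped the controls (0.31, SE 0.32, q = 0.516). In TL14d, replicate 2 stood at 1245 CPM and the others at 504 and 565 CPM. The 14-day log2 fold change of 0.42 (SE 0.32, q = 0.678) became -0.11 without replicate 2 and 0.64 (q = 0.262) without replicate 1.

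**Figure D2:**
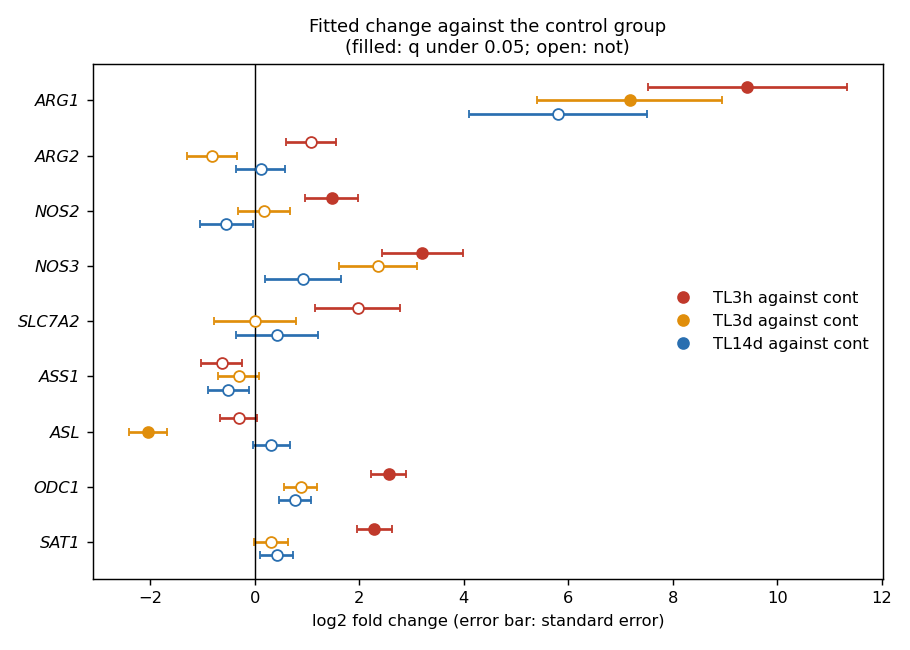
Fitted log2 fold change of each of the 9 genes against cont in TL3h, TL3d and TL14d, with its SE as the error bar; filled points passed q 0.05 and open ones did not. ARG1 is at 9.42, 7.17 and 5.80, and ASL is at -0.31, -2.04 and 0.32.

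From 3 hours to 3 days, ARG2, ODC1, SAT1 and ASL fell and none of the 9 genes rose, 4 of 9 against 37.3% of all genes (19.0% downwards), and 7 of 9 did not overlap, against 54.7%. An unadjusted p under 0.05 was reached by 6 of 9, against 47.5%. The median log2 difference was -1.74 over the 9 genes and -0.05 over all genes. ODC1 fell by 1.68 on the log2 scale (SE 0.32, q = 0.00255). SAT1 fell by 1.97 (SE 0.33, q = 0.00138). ASL fell by 1.74 (SE 0.37, q = 0.00448). NOS2 was lower in each TL3d library, but its difference of -1.29 did not pass (SE 0.51, q = 0.0688), nor did that of NOS3 (-0.85, SE 0.71, q = 0.373) or ASS1 (0.33, SE 0.40, q = 0.543). NOS2 passed there with DESeq2 (q = 0.0405; 0.0405 to 0.261 over all alternatives).

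Levels of the 9 genes were ranked against each other only as FPKM, which divide the fragments of a gene by its length and by the library total. In cont the order of mean FPKM was SAT1 at 574, ASL at 45.6, ODC1 at 33.8, ASS1 at 9.47, ARG2 at 1.50, SLC7A2 at 1.19, NOS2 at 0.514, NOS3 at 0.246 and ARG1 at 0.127. The first 4 did not overlap with their neighbours, and from ARG2 downwards each overlapped the next. In TL3h ARG1 was in the third place with 64.8 ± 16.2 FPKM (SD, n = 3), below SAT1 at 2010 and ODC1 at 143 and above ASL at 26.5, without overlap. In TL3d it was in the third place again, at 19.3 ± 10.8 FPKM, but overlapped ASL at 11.1. In TL14d ODC1 at 58.4 and ASL at 57.7 overlapped, as did ARG1 at 7.44 and ASS1 at 6.74.

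The balance between the enzymes that share arginine is described by FPKM ratios within a library. ARG1 over NOS2 was 0.0913, 0.206 and 0.424 in cont. It was 75.7, 55.7 and 65.6 in TL3h and 30.1, 33.8 and 34.2 in TL3d. The ratio was thus below 1 in each control and narrow within both early groups, while TL14d gave 0, 56.7 and 7.24. ARG1 over ARG2 was 0.022 to 0.268 in cont, 17.2 to 56.9 in TL3h and 16.5 to 30.7 in TL3d, while TL14d gave 0, 16.3 and 0.758. NOS2 over NOS3 was above 1 in the controls (9.42, 1.74 and 1.33) and below 1 in TL3h (0.611, 0.736 and 0.483), and lay on both sides of 1 in TL3d (0.632, 1.01 and 0.125) and TL14d (2.20, 1.40 and 0.198). ASL over ASS1 was 4.32 to 5.73 in cont and 0.956 to 2.28 in TL3d, without overlap. It was 4.84 to 8.19 in TL3h and 4.09 to 30.3 in TL14d, both overlapping cont. SAT1 over ODC1 was 15.7 to 19.6 in cont and 12.4 to 16.8 in TL3h, which overlapped, and 9.86 to 14.0 in TL3d, below all controls. In TL14d SAT1 over ODC1 was 8.42 to 16.5.

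At the transcript level, which reuses the same reads, 2 ARG1 transcripts were annotated. The transcript that carried at least 97.8% of ARG1 transcript counts in each library with any had a log2 fold change of 9.48 at 3 hours (q = 0.00516) and 7.22 at 3 days (q = 0.0485, adjusted over 26082 transcripts). The minor ARG1 transcript was at 0 in each cont library, so no fold change is given, and had a mean of 1.67 CPM in TL3h and 0.422 CPM in TL3d. Of the 2 NOS3 transcripts, the curated one rose at 3 hours (3.26, q = 0.00728) and the other was at 2.79 (q = 0.12). The gene call of NOS2 at 3 hours was not met by either of its tested transcripts (1.40, q = 0.2, and 1.12, q = 0.522). None of the 4 SLC7A2 transcripts passed at 3 hours, and the 5 other genes have 1 transcript each. How reads that fit several transcripts were shared is not given in the sources used here.

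The genes whose log2 CPM pattern over the 12 libraries lay nearest to a member were found among 13244 genes, by the root mean square difference of values centred on each gene's mean. For ARG1, whose own SD was 4.22 on the log2 scale, they were CCR1 (0.73), FPR2 (0.83) and IL1B (0.86), a chemokine receptor, a formyl peptide receptor on the neutrophil list and a cytokine. For NOS2 (SD 0.96) they were WDR74 (0.38), APOBR (0.39) and TSC22D2 (0.45). For ODC1 (SD 1.04) they were HSPA5 (0.21), an endoplasmic reticulum chaperone, WDR12 (0.26) and PTRH2 (0.27). For ASS1 (SD 0.54) they were RNF152 (0.30), SORL1 (0.31) and LOC103347457 (0.33).

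Around the 9 genes, 61 further pathway genes were listed, of which 52 were in the table and 48 tested. At 3 hours 12 rose and 11 fell, with a median log2 fold change of -0.04. At 3 days 3 rose and 3 fell, 6 of 48 against 17.6% of all genes, at 14 days 0 passed edgeR's test (5 at an unadjusted p under 0.05, against 10.4% of all genes, and 1 with DESeq2, against 2.47%), and from 3 hours to 3 days 8 rose and 14 fell, 22 of 48 against 37.3% of all genes (12 and 8 with total-count scaling). The 3-hour calls, 23 of 48, are a share near the 45.4% of all genes, and their split moved to 12 higher and 4 lower without cont replicate 1, to 11 and 6 without cont replicate 2 or TL3h replicate 2, and to 10 and 18 with total-count scaling.

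Among arginine transport, urea cycle and ornithine genes, 3 of 14 tested rose and 1 fell at 3 hours, against 23.2% and 22.2% of all genes. SLC7A1, the widely used cationic amino acid carrier, went from 17.2 to 118 CPM on average (log2 fold change 2.77, SE 0.33, q = 0.000174). SLC3A2, the heavy chain of several amino acid carriers, had a log2 fold change of 2.73 (SE 0.35, q = 0.000243). SLC25A15, the mitochondrial ornithine carrier, rose by 1.21 (q = 0.0113) but not with total-count scaling or without TL3h replicate 2 (q up to 0.0851). ALDH4A1, of proline breakdown, fell by 1.0 (q = 0.0184), a call lost without cont replicate 1, cont replicate 2 or TL3h replicate 2 (q up to 0.0692). At 3 days SLC7A7, which exports cationic amino acids, rose by 2.25 (q = 0.0306) and SLC25A15 by 1.16 (q = 0.0362). The SLC7A7 call was lost on leaving out any 1 of the 6 cont and TL3d libraries (q up to 0.103), and the SLC25A15 call on leaving out any of those 6, TL3h replicate 3 or TL14d replicate 3 (q up to 0.113). Without cont replicate 1 or 2 or TL3d replicate 1 or 2, 2.37% to 3.25% of all genes passed at 3 days, against 17.6%.

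In the nitric oxide list, 4 of 18 tested rose and 7 fell at 3 hours, against the same 23.2% and 22.2% of all genes. VASP, a substrate of cyclic GMP-dependent kinase, rose by 1.65 (q = 0.000508), and CAV1, the caveolar protein that binds NOS3, by 1.33 (q = 0.00546). GCH1, which starts synthesis of the cofactor tetrahydrobiopterin, rose by 1.24 (q = 0.0177), not with total-count scaling or without cont replicate 2, TL3h replicate 1 or TL3h replicate 3 (q up to 0.113). PRMT1, an arginine methyltransferase, rose by 1.01. PRKG1, the cyclic GMP-dependent kinase, fell by 1.79 (q = 0.00129) from a mean of 50.5 to 14.6 CPM, and by 1.54 at 3 days (q = 0.0155; lost without cont replicate 1 or 2 or TL3d replicate 1 or 2, q up to 0.0576). Without 1 of these 4 libraries, 2.37% to 3.25% of all genes passed at 3 days, against 17.6%. NOS1, the neuronal synthase, held 43, 27 and 19 counts in cont and 3, 1 and 1 in TL3h (q = 0.00237), too few for a fold change. It held 5, 2 and 6 counts in TL3d (q = 0.0224), a call lost without the same 4 libraries (q up to 0.095). In TL14d NOS1 held 1, 4 and 1 counts, again below each cont library, and did not pass (q = 0.346). DDAH1, which degrades methylated arginine, fell by 1.0 at 3 hours (q = 0.0445), a call lost in 9 of its alternatives, among them those without cont replicate 1 or 2, TL3h replicate 1 or 2, or any TL3d library (q up to 0.121).

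In the polyamine list, 5 of 16 tested rose and 3 fell at 3 hours, where 23.2% of all genes rose and 22.2% fell. AMD1, which supplies the aminopropyl donor of spermidine and spermine, rose from a mean of 35.4 to 216 CPM (log2 fold change 2.61, SE 0.27, q = 8.65e-05). SMOX, spermine oxidase, rose by 2.28 (q = 0.00288), ATP13A3, a polyamine transporter, by 1.87 (q = 0.00155), EIF5A, the translation factor that carries the spermidine-derived hypusine, by 1.64 (q = 5.53e-05) and AZIN1, the antizyme inhibitor, by 1.19 (q = 0.000222). SAT2, the relative of SAT1, fell by 1.14 (q = 0.00295), and ATP13A2 by 1.20 (q = 0.0152; 0.0544 without cont replicate 1). At 3 days EIF5A rose by 0.69 (q = 0.0181) and EIF5A2 fell by 1.84 (q = 0.0181). The EIF5A call was lost without cont replicate 1 or 2 or TL3d replicate 1 or 2 (q up to 0.0732), and the EIF5A2 call without cont replicate 1, TL3d replicate 1 or TL3d replicate 2 (q up to 0.0724). In those fits 2.37% to 3.25% of all genes passed at 3 days, against 17.6%.

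**Figure D3:**
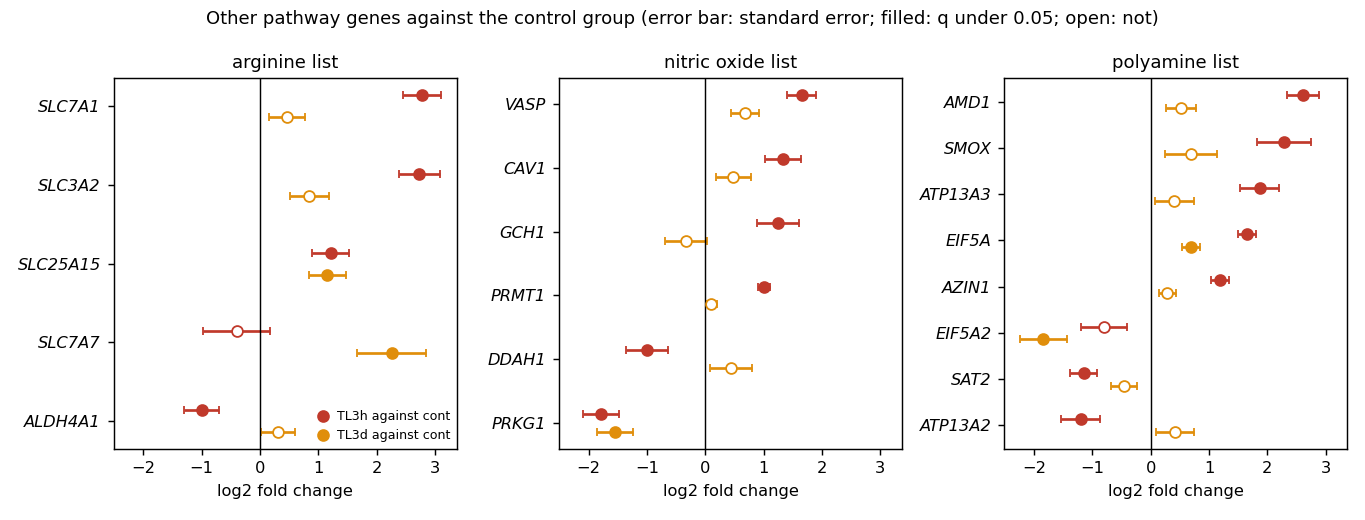
Log2 fold change of the named pathway genes other than NOS1 at 3 hours and 3 days against cont with its SE as the error bar, in the arginine, nitric oxide and polyamine lists; filled points passed q 0.05 and open ones did not. At 3 hours SLC7A1 is at 2.77, AMD1 at 2.61 and PRKG1 at -1.79.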

How the data were processed

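Poly(A) RNA libraries (stranded) of 12 conjunctiva samples were analysed. Per the labels and the study's methods, the authors aligned reads to OryCun2.0 with STAR 2.6.0c and deposited expected counts (estimated counts, not normalized) and FPKM per gene and transcript, and 23.4% of the gene counts were not whole. The counts were rounded, filtered (filterByExpr, minimum count 10, total 15; 14835 genes kept), TMM-scaled and tested in 1 unpaired fit of all 12 libraries with edgeR 4.0.16 (quasi-likelihood, Benjamini-Hochberg, q 0.05; R 4.3.3). The deposited FPKM values served only for comparisons between genes. Alternatives used limma 3.58.1, DESeq2 1.42.0, other scalings, no filter, 6 libraries, a replicate block and leaving out each library. The members and gene lists were chosen with earlier results of these data known. Pathway genes were named when past q 0.05 with no overlap and an absolute log2 fold change of at least 1 at 3 hours or 3 days, at most 8 a list, and 3 nearest genes for each of ARG1, NOS2, ODC1 and ASS1 at a mean of at least 1 CPM (prior count 2). Scripts were tested on simulated data. Floors cover counting error only. MicroShunt libraries were not used here, and 1 listed pathway gene is not reported here.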

Additional observations from a re-analysis of the deposited data

Results flagged for a closer look

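For 20 of the 29 named genes (4 of 9 members and 16 of 20 pathway genes) the change at 3 days differed from the change at 3 hours by edgeR's test of TL3d against TL3h, in which the shared controls cancel and 37.3% of all genes passed. The pathway genes were named for their change against cont in the same TL3h or TL3d libraries, which favours a high count, so nothing is read from it. Of the 9 genes, the log2 difference was -1.90 for ARG2, -1.68 for ODC1, -1.97 for SAT1 and -1.74 for ASL. ODC1 and SAT1 had risen at 3 hours, whereas ARG2 and ASL had not passed the test then.

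Among arginine genes it was -2.31 for SLC7A1, -1.88 for SLC3A2, 1.31 for ALDH4A1 and 2.66 for SLC7A7. Among nitric oxide genes it was -1.58 for GCH1, -0.97 for VASP, -0.90 for PRMT1, -0.85 for CAV1 and 1.44 for DDAH1. The CAV1 libraries overlapped, and its call was lost in 17 of its alternatives. Among polyamine genes it was -2.08 for AMD1, -1.59 for SMOX, -1.46 for ATP13A3, -0.95 for EIF5A, -0.91 for AZIN1, 0.69 for SAT2 and 1.61 for ATP13A2. The SAT2 call was lost in 8 of its 19 alternatives (q up to 0.123, without TL3d replicate 2) and the SMOX call in 5 (q up to 0.0678), and those of AZIN1 (q = 0.052) and VASP (q = 0.148) were lost with total-count scaling. The ARG2 call was lost without TL3h replicate 1 (q = 0.0554).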

How the results depend on the processing

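Over 684 alternative values for the 36 member results, 634 kept direction and side of the threshold, 13 lost the call, 26 gained it and 11 changed sign. Of 760 for the 40 called pathway results, 680 kept both and 80 lost the call. The 3-hour counts (5 members, 23 pathway genes) stayed within 1.5 times, but the 11 lower pathway genes became 4 to 11 on leaving out libraries and 18 with total-count scaling, which also gave 4 members higher and 1 lower at 3 hours and 2 and 1 at 3 days. The 3 higher and 3 lower pathway genes at 3 days became 3 and 4 with it and 3 and 5 with DESeq2's size factors. At 3 days, 2 members passed, against 4 with DESeq2 and 0 to 4 when each library was left out (0 without TL3d replicate 2, 1 without cont replicate 1, cont replicate 2 or TL3d replicate 1, 4 without TL14d replicate 1). The calls over all genes moved too, from 17.6% to 30.1% with DESeq2 and 22.6% with only the 6 libraries compared. They were 25.0% without TL14d replicate 1 and 19.8% without TL14d replicate 2. Without cont replicate 1 they were 3.25%, and without cont replicate 2 they were 2.46%. Without TL3d replicate 1 they were 2.97%, and without TL3d replicate 2 they were 2.37%. The 6 pathway genes became 14 with DESeq2, 11 with only the 6 libraries compared and 0 to 10 when each library was left out (0 without cont replicate 1, TL3d replicate 1 or TL3d replicate 2, 10 without TL14d replicate 1 or 2). At 14 days, 0 members became 1 with DESeq2 and 0 to 2 on leaving out libraries (2 without TL14d replicate 1), and likewise 0 pathway genes became 1 and 0 to 2, where all genes went from 0.00% to 2.47% with DESeq2 and 4.74% without TL14d replicate 1. From 3 hours to 3 days, 22 pathway genes became 14 to 24 on leaving out libraries (14 without TL3d replicate 2), 27 with DESeq2 and 26 with the replicate block. The share over all genes moved too, from 37.3% to between 26.1% (without TL3d replicate 2) and 41.2% on leaving out libraries. It was 44.7% with DESeq2 and 39.3% with the replicate block. On leaving out libraries the uncalled log2 fold changes that changed sign ran from -0.20 to 0.54 (NOS2) and -0.73 to 1.04 (SLC7A2) at 3 days, and from -0.14 to 0.51 (ARG2), -0.023 to 1.67 (NOS3), -0.11 to 0.64 (SAT1), -0.026 to 1.45 (SLC7A2) and -0.13 to 0.68 (ASL) at 14 days. The causes were not tested.

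Whether samples of the same replicate number share an animal is not given by the labels, and correlations between libraries cannot decide it. Of 18 same-numbered pairs, 8 correlated over 0.1 (-0.17 to 0.50), and 17 of 36 comparisons were best with the own number. With the replicate block, 7, 3, 0 and 6 members passed in the 4 comparisons, against 46.8%, 18.3%, 0.00% and 39.3% of all genes. The block added ARG2 (q = 0.0454) and SLC7A2 (2.30, q = 0.00101) at 3 hours and NOS3 at 3 days (q = 0.0221). Between 3 hours and 3 days it added NOS2 (q = 0.0483) and SLC7A2 (q = 0.00162). It lost DDAH1 at 3 hours and CAV1 and SAT2 between 3 hours and 3 days. NOS2 at 3 days was at -0.015. At this depth ARG1 in cont and NOS1 after surgery rest on few counts.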
